A study of Homo sapiens with 6 samples.

Results

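The melanoma antigen (MAGE) family was followed here through 35 gene symbols of the 27980 in the count tables. These were all symbols that begin with MAGEA, MAGEB, MAGEC, MAGED, MAGEE, MAGEF, MAGEH or MAGEL and hold no hyphen. The rule used names only and no measured value, but members were chosen with earlier results of these data known. Of the 35 symbols, 13 are MAGEA, 10 MAGEB, 3 MAGEC, 4 MAGED and 2 MAGEE, with 1 each of MAGEF, MAGEH and MAGEL. By position, 33 lie on chromosome X, MAGEF1 lies on chromosome 3 and MAGEL2 on chromosome 15. MAGED4 and MAGED4B held identical counts in all 6 libraries, as did MAGEA2 and MAGEA2B, and each pair is counted as 1 measurement, which leaves 33 measurements.

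RNA was sequenced from RKO cells, a human colon carcinoma line that the labels call poorly differentiated. The 3 shTRIP6 libraries came from cells that stably carry a lentiviral short hairpin RNA against TRIP6, with the genotype given as TRIP6 knockdown. The 3 shControl libraries came from cells that carry a scrambled hairpin, with the genotype given as WT. Both kinds of cells were infected with lentivirus and, from 36 h later, kept in puromycin at 5 µg/ml for 2 to 3 weeks. Replicates are labelled biological without a word on separate cultures, and p-values therefore measure no more than the spread between these libraries. The sources used here do not say whether both lines came from 1 stock of cells, so effects of the hairpin and of the stock cannot be told apart. In bulk RNA, fewer cells that express a gene and less RNA per cell cannot be told apart either.

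MAGE proteins share a MAGE homology domain, by which many of them bind RING-type ubiquitin ligases and steer them to substrates. The type I genes (MAGEA, MAGEB and MAGEC) are cancer-testis antigens. They are normally active in germ cells, are silenced by promoter methylation in most other tissues, and come on again in many tumours, where their peptides can be shown to T cells. The type II genes (MAGED, MAGEE, MAGEF, MAGEH and MAGEL) are expressed more widely in adult tissues, with several of them strong in brain.

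The family in RKO cells was almost wholly type II RNA. MAGED1, MAGED2, MAGED4, MAGEE1 and MAGEH1 were higher in shTRIP6 and MAGEF1 was lower. MAGED4 differed most among these, with 25.3 ± 1.52 CPM for the shTRIP6 cells and 5.73 ± 0.610 CPM for the shControl cells (SD, n = 3 each). CPM are read counts scaled to the size of the library. Of the type I genes only MAGEA1 passed 5 counts in any library, with 0 to 3 counts per library in shTRIP6 against 25 to 48 in shControl. Summed over all measurements, the family stood at 409, 405 and 400.4 CPM in the shTRIP6 libraries and at 266, 267 and 267 CPM in the shControl libraries.

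Promoter sequences are shown for the gene with the largest rise and for MAGEA3, a type I gene with almost no counts, to set their CpG content side by side. Each is a window of 250 bases before to 50 after a transcription start from RefSeq (GRCh38.p14), read 5′ to 3′ on the gene's strand, with every CpG dinucleotide in capitals. MAGED4 is read on the plus strand at chrX:52184638-52184937, MAGED4B on the minus strand at chrX:52069134-52069433, MAGED1 on the plus strand at chrX:51893373-51893672 (the richer in CpG of its pair of windows) and MAGEA3 on the plus strand at chrX:152698544-152698843.
MAGED4: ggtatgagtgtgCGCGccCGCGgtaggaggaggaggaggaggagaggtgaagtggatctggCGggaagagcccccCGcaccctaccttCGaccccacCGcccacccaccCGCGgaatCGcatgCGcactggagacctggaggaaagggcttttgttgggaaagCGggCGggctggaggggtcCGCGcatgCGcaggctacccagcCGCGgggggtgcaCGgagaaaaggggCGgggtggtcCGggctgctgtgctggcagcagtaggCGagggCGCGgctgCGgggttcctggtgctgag
MAGED4B: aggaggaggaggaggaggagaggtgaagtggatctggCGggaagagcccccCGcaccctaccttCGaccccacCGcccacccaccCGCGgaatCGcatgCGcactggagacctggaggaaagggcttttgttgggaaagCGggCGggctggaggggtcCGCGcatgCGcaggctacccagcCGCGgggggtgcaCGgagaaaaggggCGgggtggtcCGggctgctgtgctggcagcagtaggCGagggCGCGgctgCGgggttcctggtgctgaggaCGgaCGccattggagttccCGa
MAGED1: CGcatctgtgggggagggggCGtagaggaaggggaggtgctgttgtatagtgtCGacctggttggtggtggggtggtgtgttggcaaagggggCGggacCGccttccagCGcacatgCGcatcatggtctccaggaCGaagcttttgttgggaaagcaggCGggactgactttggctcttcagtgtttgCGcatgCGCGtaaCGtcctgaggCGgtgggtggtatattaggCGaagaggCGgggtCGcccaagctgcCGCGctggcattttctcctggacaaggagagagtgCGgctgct
MAGEA3: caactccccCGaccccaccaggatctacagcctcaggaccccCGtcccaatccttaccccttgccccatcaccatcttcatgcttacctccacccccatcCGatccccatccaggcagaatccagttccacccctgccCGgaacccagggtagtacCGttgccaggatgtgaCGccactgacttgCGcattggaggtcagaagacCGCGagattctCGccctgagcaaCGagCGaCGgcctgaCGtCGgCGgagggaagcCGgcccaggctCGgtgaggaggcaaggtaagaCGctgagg

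The MAGED4 and MAGED4B windows are near copies, offset along the gene, that share an unbroken run of 276 of 300 bases. MAGED4 holds 26 CpG and this MAGED4B window 25. The MAGED1 window holds 20 CpG and shares a run of 17 bases with that of MAGED4, which reads gcttttgttgggaaagc. The MAGEA3 window, which is letter for letter that of MAGEA6 as well, holds 19 CpG, close to the number in this MAGED1 window. The other MAGED1 window holds 10.

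Of the 35 symbols, 30 have at least 1 window in the RefSeq promoter table, and 41 windows in all. MAGEA1, MAGEA10, MAGEA5, MAGEB17 and MAGEH1 have no entry. The 9 windows of the 6 symbols tested in the comparison held 10 to 26 CpG with a median of 20, and the 32 windows of the other 24 symbols held 1 to 21 with a median of 11.5. Among the tested ones, the MAGED4 and MAGED4B windows, at 22, 25 and 26 CpG, are near copies of 1 stretch. They therefore weigh more than once in the median of 20, and windows of the other tested symbols held 10 to 21. Copies stand among the untested ones as well, such as MAGEA3 with MAGEA6. Across all 35116 windows of the table the median was 14, with quartiles of 4 and 28. CCGGAA, a form of the ETS-factor core, was searched on both strands, since ETS factors are known to act on the MAGEA1 promoter. Forms with another last base, which windows of several untested MAGEA genes hold, were not counted. It stood in 7 of the 41 member windows, 3 of 9 in tested symbols and 4 of 32 in the others, against 17.2% of all windows of the table. None of the MAGED4 and MAGED4B windows held it, while the MAGEF1 window held 2 matches. These are matches of letters, and methylation was not measured.

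**Figure D1:**
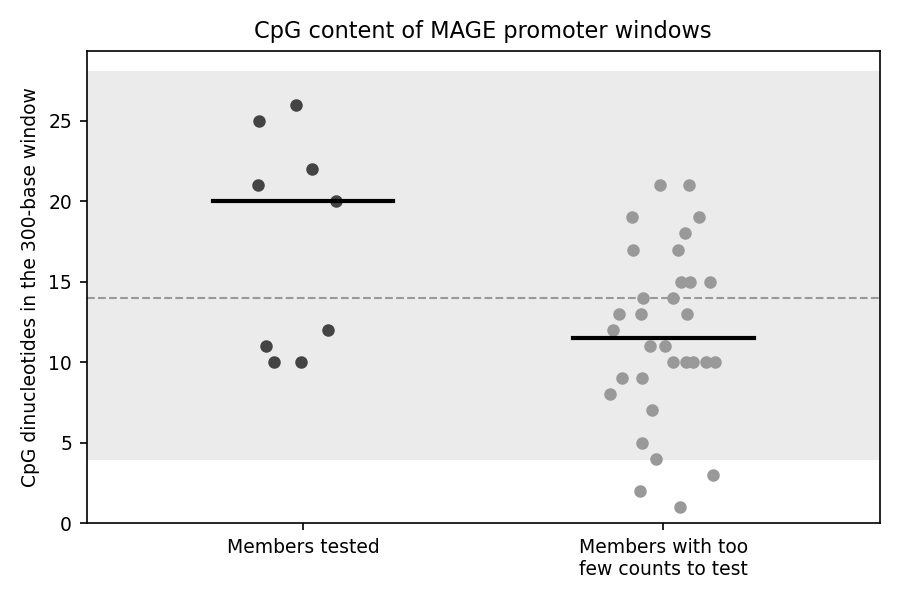
CpG dinucleotides per promoter window of 300 bases (vertical axis) for tested and untested MAGE symbols, a point per window, with black bars for the medians, and the dashed line and grey band for the median and quartiles of all 35116 windows. The 9 windows of tested symbols lie between 10 and 26 and the 32 windows of the others between 1 and 21, so both sets overlap. The tested points at 22, 25 and 26 are the MAGED4 and MAGED4B windows, near copies of each other.

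The libraries were alike in depth, at 31096598 to 32089298 counts in shTRIP6 and 29605764 to 30949334 in shControl, so that 1 count was worth 0.0314 to 0.0336 CPM. TRIP6, the target of the hairpin and a LIM-domain adaptor of the zyxin family, had 19.8, 19.4 and 19.5 CPM in the shTRIP6 libraries and 73.9, 86.4 and 80.5 CPM in the shControl libraries, or 24.3% of the mean of the controls (edgeR log2 fold change -2.04 ± 0.07 with adjusted p = 1.25e-14). Summed levels of simple epithelial and RKO markers were 8662 to 9082 CPM in shTRIP6 and 6769 to 6810 CPM in shControl. Most of that gap was VIM, a mesenchymal filament gene, at 6271 CPM in shTRIP6 and 4103 CPM in shControl. Of the epithelial keratins KRT19 was higher and KRT8 and KRT18 were not called, and EPCAM and VIL1 had no count in any library. CDH1 and CDX2 had too few counts to be tested. CDH1 had 1, 0 and 1 counts in shTRIP6 and 9, 9 and 7 in shControl. CDX2 had 2, 4 and 2 counts in shTRIP6 and none in shControl. Fibroblast markers summed to 160.1 to 180.4 CPM in shTRIP6 against 122 to 139 CPM in shControl (2 higher and 5 lower of 9 tested). THY1, at 153 CPM in shTRIP6 and 89.3 CPM in shControl, and PDGFRB, at 13.9 CPM in shTRIP6 and 6.88 CPM in shControl, were the higher ones. COL1A1, which passed the filter in both groups, was lower, at 2.38 CPM in shTRIP6 and 5.15 CPM in shControl. The other lower ones, DCN, FAP, POSTN and MFAP5, were tested only through their shControl counts, so their calls carry no support of their own. Leukocyte markers summed to 236 to 245 CPM in shTRIP6 and 187 to 236 CPM in shControl. Almost all of it was CD68, which was called higher, at 239 CPM in shTRIP6 and 208 CPM in shControl. CD14, the other tested one, was higher as well, at 2.22 CPM in shTRIP6 and 0.52 CPM in shControl. It was tested only through its shTRIP6 counts, so its call carries no support of its own. PTPRC, not tested, had no count in shTRIP6. Endothelial markers summed to 0.345 to 0.450 CPM in shTRIP6 and 2.28 to 2.57 CPM in shControl. The only tested one, PECAM1, had no count in shTRIP6 and was tested only through shControl. The part of these markers in the MAGE results was not tested.

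Of the 33 measurements, 17 had at least 1 count in some library and 7 had enough counts to be tested for a difference. Among these 7, edgeR's quasi-likelihood test called 5 higher and 2 lower in shTRIP6 at a Benjamini-Hochberg adjusted p under 0.05, over all 15473 genes tested. All tested symbols are annotated as protein-coding genes. MAGEA1 is among the 7 only through its shControl counts and so had to differ. The other 6 had a mean of at least 1 CPM in both groups, and of these 5 were higher and MAGEF1 lower. Over all genes tested, 29.0% were called higher and 31.2% lower, so that a majority of all genes tested also differed between these lines. Of the same 6, 5 had their shTRIP6 libraries wholly above and 1 wholly below the shControl libraries, where 31.8% of all genes lay wholly above and 33.5% wholly below. Rises of at least 2-fold were called in 4.38% of all genes, and of the MAGE measurements MAGED4 alone had one. The median log2 fold change was 0.49 over the 6 and -0.00 over all genes.

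**Figure D2:**
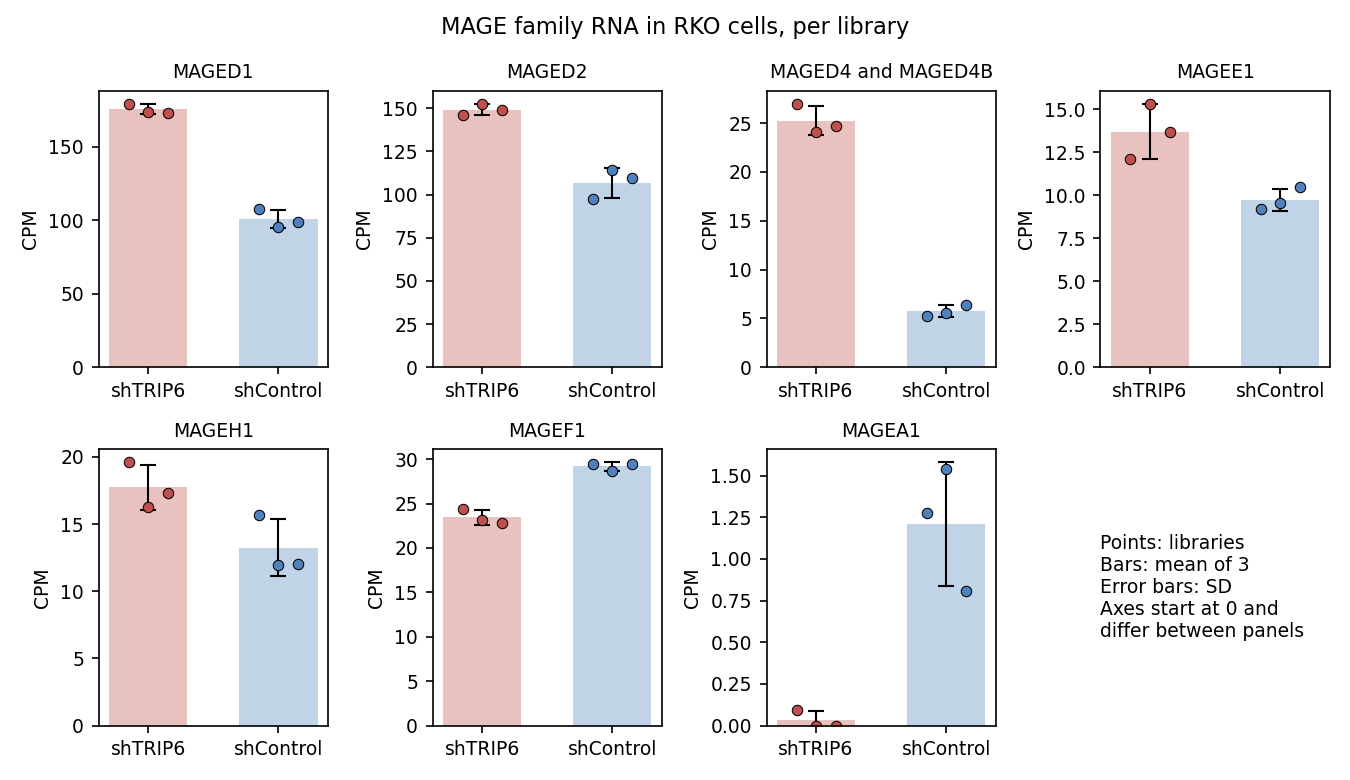
CPM of the 7 tested MAGE measurements (vertical axis, linear, from 0 and with its own range in each panel), shTRIP6 left of shControl, with points for libraries, bars for means of 3 and error bars for SD. In MAGED1, MAGED2, MAGED4, MAGEE1 and MAGEH1 all shTRIP6 points lie above the shControl points, and in MAGEF1 and MAGEA1 all lie below.

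The MAGED genes carried most of the family's RNA. They summed to 352, 351 and 347 CPM in shTRIP6 against 210.1, 215 and 214 CPM in shControl. MAGED1, also called NRAGE or Dlxin-1, encodes a binding partner of the p75 neurotrophin receptor, of homeodomain proteins of the DLX and MSX families and of the ubiquitin ligase Praja-1. It lies on the plus strand of chromosome X from 51803007 to 51902357 (GRCh38). Its level was 179, 174 and 173 CPM in shTRIP6 and 108, 95.7 and 98.6 CPM in shControl. The shTRIP6 libraries all lay well above the highest shControl library, with a 1.74-fold difference (log2 fold change 0.80 ± 0.05, edgeR adjusted p = 1.90e-10).

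MAGED2 encodes a protein needed for salt reabsorption in the fetal kidney, and its loss causes transient antenatal Bartter syndrome. The gene lies on the plus strand of chromosome X from 54807599 to 54816012. It was at 146, 153 and 149 CPM in shTRIP6 and at 97.2, 114 and 109 CPM in shControl. The groups did not overlap, although shControl spread wider than shTRIP6, and the difference was 1.40-fold (log2 fold change 0.48 ± 0.06, edgeR adjusted p = 7.51e-07).

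MAGED4 and MAGED4B are a pair of near-identical genes with expression known in brain and in gliomas. MAGED4B lies on the minus strand of chromosome X from 52061827 to 52069248 and MAGED4 on the plus strand from 52184823 to 52192268. Of the stretches of 50 bases in MAGED4 transcripts, 99.0% also occur in another gene, and for MAGED4B 96.3%. Their counts were equal in every library, so RNA from the pair cannot be told apart, and their exons also hold those of the small RNA genes SNORA11D and SNORA11E. The shared value was 27.0, 24.1 and 24.7 CPM in shTRIP6 and 5.21, 5.58 and 6.40 CPM in shControl. The lowest shTRIP6 library lay far above the highest shControl library. The difference was 4.40-fold (log2 fold change 2.14 ± 0.11, edgeR adjusted p = 4.73e-12), and 0.646% of all genes tested had a larger log2 fold change.

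MAGED4 thereby took a larger part of the family's RNA, at 6.24% ± 0.332 of the summed CPM in shTRIP6 against 2.15% ± 0.225 in shControl (SD, n = 3 each). MAGED1 made up 43.3% ± 0.491 in shTRIP6 and 37.7% ± 2.44 in shControl. MAGED2 made up 36.9% ± 0.994 in shTRIP6 and 40.1% ± 3.19 in shControl. These shares are not corrected for transcript length and are given without a test.

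MAGEE1 encodes a protein with a pair of MAGE domains that binds alpha-dystrobrevin, a part of the dystrophin complex. It lies on the plus strand of chromosome X from 76427724 to 76431353. It was at 12.1, 15.3 and 13.7 CPM in shTRIP6 and at 9.17, 9.56 and 10.4 CPM in shControl. The gap between the lowest shTRIP6 and the highest shControl library was narrow, and the difference was 1.41-fold (log2 fold change 0.49 ± 0.12, edgeR adjusted p = 0.00148). MAGEE2, the only other member of its subfamily, had no count.

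MAGEH1 is a small MAGE protein that, like MAGED1, binds the p75 neurotrophin receptor. The gene lies on the plus strand of chromosome X from 55452105 to 55453566. It was at 19.6, 16.3 and 17.3 CPM in shTRIP6 and at 15.7, 12.0 and 12.1 CPM in shControl. The second shTRIP6 library stood only a little above the first shControl library, and the difference was 1.34-fold (log2 fold change 0.42 ± 0.12, edgeR adjusted p = 0.00431).

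MAGEF1 works with the ubiquitin ligase NSMCE1 on MMS19, a factor of iron-sulfur cluster assembly. It is the expressed member that does not lie on chromosome X, at 184710367 to 184712002 on the minus strand of chromosome 3. It was at 24.4, 23.2 and 22.8 CPM in shTRIP6 and at 29.5, 28.6 and 29.5 CPM in shControl. Every shTRIP6 library was lower than every shControl library, at 0.804 of the control mean (log2 fold change -0.32 ± 0.08, edgeR adjusted p = 0.00145). Its change was of middling size, since 51.9% of genes tested had a log2 fold change larger in size. MAGEL2, a gene of the Prader-Willi region whose protein acts with TRIM27 on the WASH complex, had no count in any library.

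**Figure D3:**
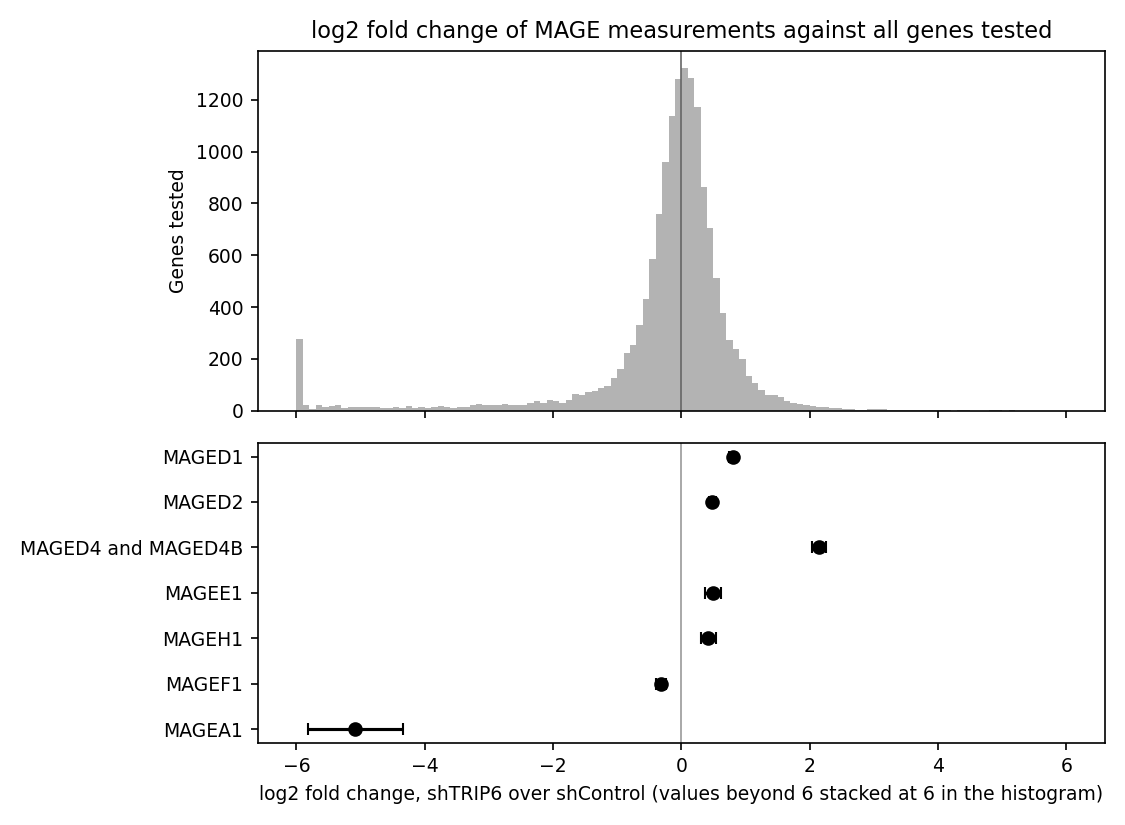
Log2 fold change of shTRIP6 over shControl (horizontal axis) with its SE for each tested MAGE measurement (lower panel), under the histogram of all 15473 genes tested (upper panel, with values beyond 6 in size stacked at 6). MAGED4 at 2.14 lies in the right tail, MAGEA1 at -5.08 in the left tail, and the other members between -0.32 and 0.80.

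Set per kilobase of annotated exon, a rough guide to levels across genes, MAGED2 was the highest member in both groups. It stood at 50.8 ± 1.11 CPM per kb in shTRIP6 against 36.4 ± 2.98 in shControl. MAGED1 came next in shTRIP6, at 29.1 ± 0.565 CPM per kb, against 16.7 ± 1.04 in shControl, where its libraries overlapped those of MAGEF1. MAGEF1 stood at 14.3 ± 0.506 CPM per kb in shTRIP6 and 17.8 ± 0.294 in shControl. MAGEH1 stood at 12.1 ± 1.16 CPM per kb in shTRIP6 and 9.05 ± 1.45 in shControl. The libraries of MAGEF1 and MAGEH1 did not overlap in either group. MAGED4 and MAGEE1 changed places, with MAGED4 at 5.25 ± 0.316 CPM per kb in shTRIP6 and 1.19 ± 0.127 in shControl, and MAGEE1 at 3.77 ± 0.441 in shTRIP6 and 2.68 ± 0.179 in shControl. In shTRIP6 the lowest MAGED4 library (5.01 CPM per kb) lay above the highest MAGEE1 library (4.22), and in shControl the highest MAGED4 library (1.33) lay below the lowest MAGEE1 library (2.53). Exon lengths were those of all annotated transcripts of a gene joined together, for example 6016 bases for MAGED1 and 1636 for MAGEF1. Such a length can exceed that of the transcripts in the cells, so the order of members depends on it.

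Genes called higher also outnumbered those called lower on the rest of chromosome X. Of 519 other tested genes of that chromosome, 37.6% were called higher and 24.7% lower, with a median log2 fold change of 0.09. The nearest tested neighbours of all tested members came to 23 genes, of which 9 were higher, 4 lower and 10 not called. Shares over all genes tested were 29.0% higher and 31.2% lower. Around the MAGED members there were 8 such neighbours, with 4 higher, 0 lower and 4 not called. TRO, itself a gene with a MAGE domain, is among the higher ones. These neighbours lie 56775 to 1024045 bases away, and MAGED1, MAGED4 and MAGED4B share the same ones.

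Among the type I genes, RNA was at or near the limit of counting. The MAGEA measurements together held 14, 1 and 2 counts in the shTRIP6 libraries and 49, 53 and 28 in the shControl libraries. MAGEA1 made up most of the shControl counts. It encodes the first human tumour antigen found to be recognised by T cells, and lies on the plus strand of chromosome X from 153179285 to 153183880. It had 3, 0 and 0 counts in shTRIP6 and 38, 48 and 25 counts in shControl, or 0.0314 ± 0.0543 CPM in shTRIP6 and 1.21 ± 0.371 CPM in shControl (SD, n = 3 each). With 3 counts in shTRIP6 against 111 in shControl, the summed level was 38.0-fold lower in shTRIP6, with an exact 95% interval of 12.7 to 187 that covers counting error only. A library with no count allows up to 3 counts, or 0.0941 to 0.101 CPM. The fitted log2 fold change was -5.08 ± 0.73 (edgeR adjusted p = 8.45e-06). That p carries no support of its own, because MAGEA1 was tested only through its shControl counts and so had to differ. All 3 shTRIP6 counts came from replicate 1, and without that library the fitted value was -8.22, which rests on the prior count because the remaining shTRIP6 libraries are at 0. Under a filter of 1 CPM in 3 libraries the gene was not tested. Only 0.662% of its stretches of 50 bases occur in another gene.

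The other MAGEA measurements held 11, 1 and 2 counts in shTRIP6 and 11, 5 and 3 in shControl, which is 14 in shTRIP6 and 19 in shControl over 7 measurements, and the libraries of the groups overlapped. MAGEA3, with MAGEA6 the partner of the ligase TRIM28, had 3, 0 and 0 counts in shTRIP6 and none in shControl. MAGEA6 had 2, 0 and 0 counts in both groups. MAGEA12 had 4 counts in shTRIP6 replicate 1 and 4 in shControl replicate 2. MAGEA5, with 0 counts in shTRIP6 against 5, 0 and 3 in shControl, shares 55.8% of its 50-base stretches with a read-through gene of MAGEA10 and MAGEA5. MAGEA3 shares 54.9% of its 50-base stretches with MAGEA6, and MAGEA2 96.4% with MAGEA2B, so how their reads were shared out depends on a counting step that the sources used here do not describe.

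MAGEB and MAGEC genes stood at or near 0 counts. MAGEB held 0, 2 and 0 counts in shTRIP6, all of MAGEB6, and 0, 0 and 1 in shControl, from MAGEB10. MAGEC held no count in shTRIP6 and 2, 0 and 0 in shControl, from MAGEC3. MAGEC1 and MAGEC2, well-known antigens of melanoma and myeloma, had none. In all, 16 symbols had no count in any library, and the 10 untested measurements with a count summed to 1 to 8 counts over the 6 libraries. No difference between the groups was detectable for them at this depth.

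**Figure D4:**
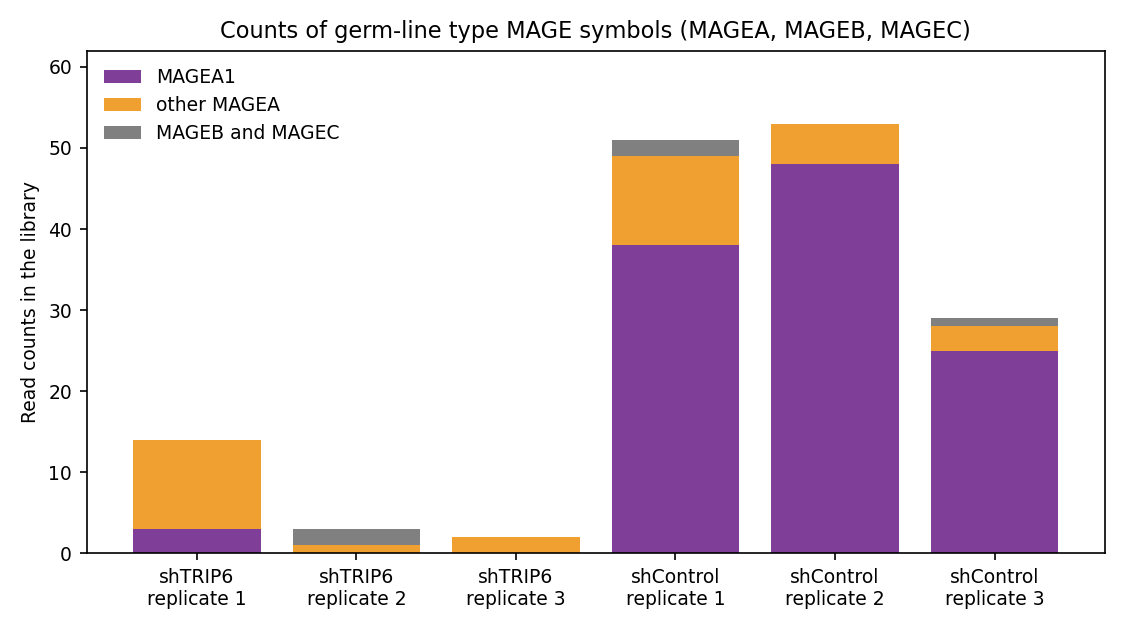
Summed raw counts of the MAGEA, MAGEB and MAGEC measurements in each library (vertical axis), with MAGEA1 drawn apart from the other MAGEA genes, shTRIP6 libraries left of shControl libraries. MAGEA1 has 0 to 3 counts in shTRIP6 and 25 to 48 in shControl, while the other MAGEA genes have 1 to 11 in shTRIP6 and 3 to 11 in shControl.

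Other genes with a MAGE domain were few. TRO, which encodes the adhesion protein trophinin, was higher in shTRIP6 cells, with 13.4 ± 1.39 CPM against 4.74 ± 0.279 CPM in shControl cells (log2 fold change 1.50 ± 0.13, edgeR adjusted p = 1.51e-08). NSMCE3, the MAGE subunit of the SMC5-SMC6 complex, had a log2 fold change of 0.18 ± 0.08 and was not called (edgeR adjusted p = 0.0594), though it was called under upper-quartile scaling (0.0182) and without shControl replicate 2 (0.0411). NDN, which encodes necdin, had no count.

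Of the ubiquitin enzymes known to work with MAGE proteins, 12 were tested, with 2 higher and 8 lower and a median log2 fold change of -0.32. TRIM27, TRIM31 and TRIM69 had no count in any library and were not tested. Among all genes tested, 29.0% were called higher and 31.2% lower. TRIM28, the partner of MAGEA3 and MAGEA6, was higher, with 455 ± 9.42 CPM in the shTRIP6 libraries against 364 ± 23.4 CPM in those of shControl (log2 fold change 0.32). MDM4 was the other (0.21), and lost its call without shControl replicate 3 (edgeR adjusted p = 0.0696). The largest falls were those of DCAF12, a substrate receptor of CUL4 ligases that recognises MAGEA3 and MAGEA6 (log2 fold change -0.74), of PJA1, the Praja-1 ligase (-0.54), and of SKP2, an F-box protein (-0.43). PJA1 had 31.4 ± 0.846 CPM in shTRIP6 cells against 45.5 ± 5.03 CPM in shControl cells, while its partner MAGED1 was higher.

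Of the genes around MAGED1 and MAGEH1 in neurotrophin and dependence receptor signalling, 10 were tested. With a median log2 fold change of -0.30, 3 were higher and 6 lower, where all genes gave 29.0% higher and 31.2% lower. NGFR and UNC5B passed the filter on low counts only through shControl, so their calls carry no support of their own. Of the other 8 genes 3 were higher and 4 lower. NGFR, the p75 neurotrophin receptor bound by both proteins, had 0.530 ± 0.213 CPM in the shTRIP6 cells against 7.47 ± 1.28 CPM in the shControl cells (log2 fold change -3.81 ± 0.27, edgeR adjusted p = 5.21e-10). UNC5B, a netrin receptor of a family with a member that binds MAGED1 in rat, had 4, 4 and 2 counts in shTRIP6 and 61, 88 and 78 counts in shControl. MSX2, a homeodomain partner of MAGED1 in mouse, was lower as well (-2.39). The genes that were higher were ROR2, a receptor tyrosine kinase that binds MAGED1 in mouse (0.65), and the apoptosis inhibitors BIRC2 (0.50) and XIAP (0.25).

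Further lists covered complexes that type II MAGE proteins serve. In the SMC5-SMC6 complex of DNA repair 0 of 8 tested genes were higher and SMC5 alone was lower (log2 fold change -0.19, edgeR adjusted p = 0.0436), a call lost in 5 alternatives with adjusted p of up to 0.232. In the WASH complex and retromer, which sort cargo at endosomes and which MAGEL2 regulates, 2 of 10 were higher and 5 lower, with a median of -0.09. For both lists, the shares over all genes were 29.0% higher and 31.2% lower. WASHC5 was higher (0.42), with exons that overlap those of NSMCE2, and so was WASHC1 (0.27), whose call was lost in 6 alternatives with adjusted p of up to 0.152. The lower ones were VPS29 (-0.24), WASHC2C (-0.19), VPS26A (-0.19), VPS35 (-0.14) and WASHC2A (-0.11). Of these, VPS29 lost its call without shTRIP6 replicate 1 (edgeR adjusted p = 0.0626), VPS35 in 3 alternatives (up to 0.0970) and WASHC2A in 8 (up to 0.268).

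Other X-linked cancer-testis antigens went both ways. Of 45 in the tables, 24 had no count and 8 were tested, with 6 higher and 2 lower (29.0% and 31.2% over all genes). All 6 rises were GAGE genes, near-identical copies whose reads may be shared between them, so they do not stand for 6 separate measurements. GAGE2A had 503 ± 11.1 CPM in shTRIP6 cells against 289.5 ± 14.1 CPM in shControl cells (log2 fold change 0.80), with exons that overlap those of GAGE1, and GAGE2E and GAGE12J both had a log2 fold change of 0.61. CT83 had no count in shTRIP6 against 75, 101 and 89 counts in shControl, at least 90.6-fold lower by the floor of 3 counts over the group. IL13RA2, named after its values were seen, had 0, 2 and 2 counts in shTRIP6 against 46, 41 and 53 in shControl. Both CT83 and IL13RA2 were tested only through their shControl counts and so had to differ.

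Germ-line genes on other chromosomes were mixed too, with 12 of 29 without a count. Of 9 tested, 3 were higher and 2 lower, beside 29.0% higher and 31.2% lower over all genes. PRAME, an antigen of melanoma, was higher, with 111 ± 4.54 CPM in shTRIP6 cells against 73.7 ± 2.85 CPM in shControl cells (log2 fold change 0.59). The meiotic gene TEX15 (1.57) and the testis lactate dehydrogenase gene LDHC (1.78) were higher at levels under 3 CPM. ZNF165 was lower (-1.14), as was SYCP2, a gene of the synaptonemal complex named after its values were seen (-2.79, and -3.83 without shTRIP6 replicate 3). SYCP2 was tested only through its shControl counts, so its call carries no support of its own.

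The list of enzymes and readers of DNA methylation and of germ-line gene silencing held 4 higher and 13 lower genes of 26 tested. Its median log2 fold change was -0.16, and all genes gave 29.0% higher and 31.2% lower. EHMT2 had no count in any library and was not tested. EHMT1, a histone H3 lysine methyltransferase, had 36.6 ± 1.64 CPM in shTRIP6 cells against 74.7 ± 2.42 CPM in shControl cells (-1.03). DNMT3B, a de novo DNA methyltransferase, was at 10.1 ± 0.640 CPM in shTRIP6 and 19.5 ± 1.49 CPM in shControl (-0.95). TDG, a glycosylase of active demethylation, was lower as well (-0.72). The higher ones were the de novo enzyme DNMT3A (0.40), the Polycomb subunit PCGF6 (0.39), the maintenance enzyme DNMT1 (0.21, with exons that overlap those of S1PR2) and CBX3 (0.12, a call lost in 4 alternatives with adjusted p of up to 0.123).

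ETS factors, a family with members known to act on MAGEA1, were higher in 4 and lower in 8 of 15 tested. Their median log2 fold change was -0.19, and all genes gave 29.0% higher and 31.2% lower. ETS1, which binds the MAGEA1 promoter, had 476 ± 9.53 CPM in shTRIP6 cells against 319.9 ± 6.15 CPM in shControl cells (0.57). ETS2 was at 22.3 ± 1.51 CPM in shTRIP6 and 66.8 ± 0.873 CPM in shControl (-1.58). The other rises were ETV1 (0.74), FLI1 (0.71, with exons that overlap those of SENCR) and ETV5 (0.16, a call lost in 4 alternatives with adjusted p of up to 0.0819). The other large falls were ETV6 (-0.67) and GABPA (-0.56, with exons that overlap those of ATP5PF). Protein levels and binding of these factors were not measured.

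**Figure D5:**
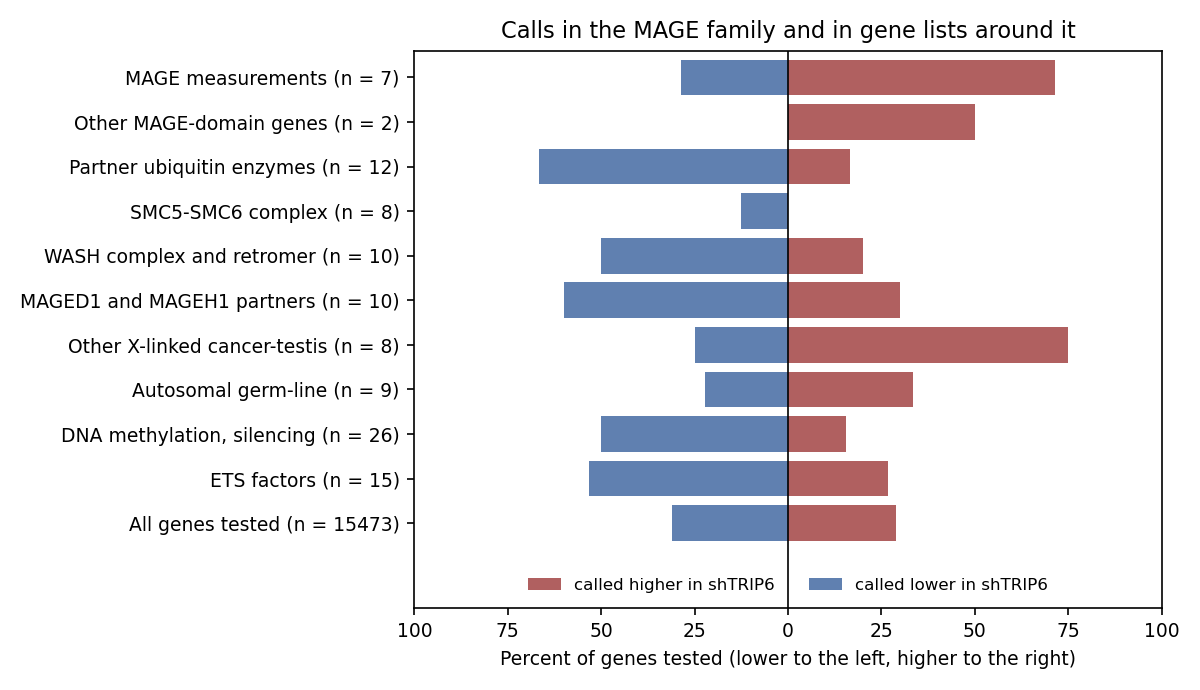
Percent of tested genes called higher (to the right) and lower (to the left) in shTRIP6 for the MAGE measurements, for each gene list around the family and for all 15473 genes tested, with the number tested beside each name. All genes show 29.0% higher and 31.2% lower, the list of ubiquitin enzymes 2 higher and 8 lower of 12, and the list of silencing enzymes 4 higher and 13 lower of 26. Bars for lower genes include MAGEA1 and others that were tested only through their shControl counts.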

How the data were processed

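RNA of 6 libraries was counted, 3 shTRIP6 and 3 shControl, grouped by the labels. For every gene symbol the authors deposited a raw count of reads, not normalized. TopHat2, edgeR, limma and the build hg38 are named without role or version, per the submitters' processing notes. How reads were assigned to genes (tool, annotation, strand) is not given in the sources used, so antisense and overlapping genes cannot be told apart. For the same reason, a symbol with no count may lack assigned reads rather than RNA.

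The comparison was run with edgeR 4.0.16 in R 4.3.3 (scaling by TMM, low counts removed by filterByExpr, quasi-likelihood test, group as the only term), on all genes together, with Benjamini-Hochberg adjustment over the 15473 tested. SEs are the size of the log2 fold change over the square root of F. The test was tested on simulated data. Library totals were 29605764 to 32089298 counts. Replicates differed by more than sampling noise, with a chi-square over its degrees of freedom of 3.05 to 4.59 within shTRIP6 and 4.81 to 11.7 within shControl. Intervals and floors of 3 counts cover only counting error, because without molecular identifiers reads are not independent molecules.

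Members were chosen by symbol, and members and lists were chosen with earlier results of these data known. Members whose mean reached 1 CPM in a group are given in every library. From each list up to 3 rises and 3 falls of the largest size, among called genes that average at least 1 CPM, are named, and further called genes complete counts of 5 or fewer. Coordinates, exon lengths and shared 50-base stretches came from GENCODE 29 (GRCh38), in which 25772 symbols matched by name. Alternatives were RLE, upper-quartile and library-size scaling, a fit with no filter or with 1 CPM required in 3 libraries, limma-voom (limma 3.58.1), DESeq2 1.42.0, a replicate block, leaving out each library, and counting every symbol on its own.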

Additional observations from a re-analysis of the deposited data

Results flagged for a closer look

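MAGEA8-AS1, an antisense symbol left out of the comparison because its name holds a hyphen, had 4 counts in the shTRIP6 libraries, all in replicate 3, and 0 in the shControl libraries. It stands here because a signal outside the compared symbols was above the level in the control libraries. A library with 0 counts allows up to 3, and whether the reads came from the sense or the antisense strand cannot be told apart. Of the other symbols left out for a hyphen, MAGEA10-MAGEA5 had 0 counts in shTRIP6 and 5, 0 and 4 in shControl. MAGEA4-AS1 had none in either group.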

How the results depend on the processing

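The 7 called MAGE measurements kept their direction and their side of the threshold in every alternative in which they were tested, with adjusted p of at most 0.0341. Among them MAGEA1 had to differ, because it passed the filter on low counts only through shControl. The count of MAGE measurements called lower was 1 under the filter of 1 CPM in 3 libraries, because MAGEA1 was not tested there. The log2 ratio of summed MAGEA CPM was -2.99 and ran from -4.88 to -2.49 when a library was left out, the lowest without shTRIP6 replicate 1, which holds 14 of the 17 shTRIP6 counts of MAGEA. The log2 ratio of summed MAGED CPM was 0.71, and 0.78 when MAGED4 and MAGED4B were each counted on their own. Over all genes, calls numbered 4018 to 5073 higher and 4368 to 5049 lower across alternatives.

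With the replicate number as a block, 5 MAGE measurements were higher and 2 lower, and 4377 genes were higher and 4702 lower over all. Libraries with the same number did not deviate together (r of -0.0234, -0.0448 and -0.0258 across genes). The labels do not say whether libraries with the same number were handled together, and these values cannot settle it. Depth limits the type I genes other than MAGEA1, which had 0 to 5 counts per library.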
